A study of Mus musculus with 6 samples.

Results

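A set of 10 core genes of the transforming growth factor beta (TGF-beta) pathway was examined in 3 mouse mammary cell lines. They are the ligand genes Tgfb1, Tgfb2 and Tgfb3, the receptor genes Tgfbr1, Tgfbr2 and Tgfbr3, the latency gene Ltbp1, and the intracellular transducer genes Smad2, Smad3 and Smad7. They were taken by gene symbol from the deposited expression table, and all 10 were among its 11417 genes. The series sequenced poly(A) RNA of the established lines BC44, HC11 and C57MG, with 2 libraries per line and 6 in all. No line was treated, and all were grown on plastic in 10% serum for 2 days after plating. RPMI1640 with 5 µg/ml insulin was used for BC44 and for HC11, which alone also received EGF (epidermal growth factor) at 10 ng/ml. C57MG was kept in DMEM GlutaMAX with 10 µg/ml insulin. Line and medium cannot be told apart in any comparison. The labels give no passage number for the libraries and do not say that replicates came from separate cultures, so p-values measure the spread between 2 libraries, which may be technical.

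TGF-beta ligands are secreted bound to their own propeptide, which keeps them latent, and latent TGF-beta binding proteins such as the Ltbp1 product tether this complex to the extracellular matrix. A freed ligand binds the type II receptor kinase (Tgfbr2), which activates the type I kinase (Tgfbr1), and the co-receptor betaglycan (Tgfbr3) helps to present ligand, above all the Tgfb2 product. The type I receptor phosphorylates Smad2 and Smad3, which enter the nucleus with Smad4, while Smad7 is induced by the pathway and blocks its receptors. In mammary epithelium TGF-beta restrains proliferation and ductal growth, and in many epithelial cells it can promote a mesenchymal state.

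Promoter sequence is shown for 5 of the genes because the results turn on their different levels: the ligand gene Tgfb1, the highest in every library, and Tgfb2, a low one with another order across the lines, the receptor genes Tgfbr1 and Tgfbr2, both highest in HC11, and Ltbp1, lowest in HC11. The RefSeq promoter table (build GRCm38.p6) held windows for 6 of the 10 genes, and Tgfb3, Tgfbr3, Smad2 and Smad7 had no entry. Each line gives the 250 bases before the annotated start, 5′ to 3′ on the gene's strand. Capitals mark matches, on either strand, to the GC box GGGCGG bound by Sp1-type factors, the TATA motif TATAAA, the CCAAT motif, the cyclic AMP response element TGACGTCA and the Smad-binding motif CAGAC. No 2 capital stretches overlap.
Tgfb1 (chr7:25686752-25687001, plus strand): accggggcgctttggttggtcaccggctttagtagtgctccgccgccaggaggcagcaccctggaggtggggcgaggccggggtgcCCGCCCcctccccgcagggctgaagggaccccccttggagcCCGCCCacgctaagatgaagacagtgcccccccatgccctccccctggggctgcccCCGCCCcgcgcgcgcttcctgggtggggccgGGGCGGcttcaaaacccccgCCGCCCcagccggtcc
Tgfb2 (chr1:186705990-186706239, minus strand): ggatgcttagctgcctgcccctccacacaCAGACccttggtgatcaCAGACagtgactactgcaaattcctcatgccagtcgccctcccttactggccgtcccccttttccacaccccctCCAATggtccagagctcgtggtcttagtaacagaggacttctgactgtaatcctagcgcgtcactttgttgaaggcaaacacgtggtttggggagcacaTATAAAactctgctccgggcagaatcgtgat
Tgfbr1 (chr4:47352972-47353221, plus strand): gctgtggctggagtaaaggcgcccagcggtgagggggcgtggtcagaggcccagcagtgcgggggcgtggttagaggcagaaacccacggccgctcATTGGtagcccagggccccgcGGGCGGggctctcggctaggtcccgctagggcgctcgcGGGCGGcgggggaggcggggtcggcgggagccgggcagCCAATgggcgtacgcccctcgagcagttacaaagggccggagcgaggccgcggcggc
Tgfbr2 (chr9:116175364-116175613, minus strand): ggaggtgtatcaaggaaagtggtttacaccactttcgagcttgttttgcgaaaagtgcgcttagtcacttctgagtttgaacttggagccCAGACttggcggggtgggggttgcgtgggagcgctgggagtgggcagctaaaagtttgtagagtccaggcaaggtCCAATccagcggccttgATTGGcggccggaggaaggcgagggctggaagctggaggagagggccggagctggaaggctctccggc
Ltbp1 (chr17:75005279-75005528, plus strand): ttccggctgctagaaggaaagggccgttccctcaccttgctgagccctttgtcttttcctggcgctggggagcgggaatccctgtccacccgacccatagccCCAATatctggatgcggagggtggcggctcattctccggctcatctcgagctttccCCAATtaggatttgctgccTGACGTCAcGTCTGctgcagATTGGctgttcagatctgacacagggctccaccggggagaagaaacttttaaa

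The Tgfb1 window was 75.2% G or C and held 5 GC boxes, with no TATAAA and no CCAAT. The Tgfb2 window was 53.6% G or C and held no GC box, but had a TATAAA from 31 to 26 bases before the start, a CCAAT and 2 CAGAC motifs. Tgfbr1 had 2 GC boxes and 2 CCAAT motifs, and Tgfbr2 had no GC box, 2 CCAAT motifs and 1 CAGAC. The Ltbp1 window, the first of 2 annotated starts, was the only one of the 8 windows of these genes with TGACGTCA. For both Ltbp1 windows, unlike the others, the bases after the start were not found near the start of a GENCODE M21 transcript of the gene. Among all 32851 windows of the same length 32.7% held GGGCGG, 12.4% TATAAA, 33.9% CCAAT, 1.55% TGACGTCA and 42.2% CAGAC, and the median was 52.4% G or C. A match is a description of the letters and does not show binding, and expression was given per gene, so the use of single starts was not measured.

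Expression is given in RPKM, the authors' reads scaled to gene length and library size, which allows levels of different genes to be set side by side as far as the unstated gene lengths allow. Estimated depth was 14160000 to 18370000 reads per library. Replicates correlated across 10759 genes, which are not independent, at r = 0.9899 to 0.9955. All lines are labelled mammary epithelial, but C57MG had little of the epithelial markers. Summed RPKM of the 14 listed epithelial markers was 5181 and 4975 in BC44, 3371 and 2477 in HC11, but 138 and 65.8 in C57MG, where Epcam was at 0.949 and 0 RPKM and 8 of the 14 markers, Cdh1 among them, were at 0 in replicate 2. Summed RPKM of the 13 listed mesenchymal markers was 7391 and 7158 in C57MG against 261 to 383 in the other lines, with Dcn at 0 in BC44 and C57MG. The part of this difference in the results against C57MG was not tested. In such bulk samples fewer cells of a type and less RNA per cell cannot be told apart. Of the other lists, 3 of 9 leukocyte, 2 of 6 endothelial and 1 of 6 adipocyte markers were in the table, with summed levels of 3.39 to 34.9, 0.252 to 2.38 and 0.407 to 8.77 RPKM. The 4 of 8 listed smooth muscle and myoepithelial markers summed to 219 to 242 RPKM in C57MG and 1075 to 2739 RPKM elsewhere, where Krt14 made up nearly all of it. A low C57MG-like signal was measured in BC44: 73 and 72 genes private to C57MG stood at medians of 0.666% and 2.02% of their C57MG level in BC44 replicates 1 and 2. In the other direction 11 genes private to BC44 stood at 0.729% and 0 in C57MG replicates 1 and 2.

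Lines were compared with limma on log2(RPKM + 1), a scale that understates differences of low genes, and p-values were adjusted over all 10759 tested genes. All 10 genes passed the expression filter, Tgfbr3 only through its levels in HC11 and C57MG. The calls of Tgfbr3 against BC44 are in the counts that follow but are not given as support. Between BC44 and HC11 9 of 10 passed an adjusted p of 0.05, against 47.7% of all tested genes. Between BC44 and C57MG 8 of 10 passed, against 71.7%, and between HC11 and C57MG 9 of 10, against 70.5%. So many genes differed between these lines that a call alone says little, and sizes are more telling. The median absolute difference of the 10 genes was 0.83, 0.60 and 1.15 on the log2 scale in these 3 comparisons, in the order given. Over all tested genes it was 0.30, 0.57 and 0.53. By direction 3 genes were higher in BC44 and 6 in HC11 (24.7% and 23.0% of all tested genes). Against C57MG 2 were higher in BC44 and 6 in C57MG (37.5% and 34.1%), and 4 were higher in HC11 and 5 in C57MG (37.4% and 33.2%). The signed medians were -0.46, -0.55 and -0.28 for the 10 genes, beside 0.02, 0.04 and 0.03 for all. The 3 comparisons share libraries and are not independent. Leaving out BC44 replicate 2 lowered the first count to 6, and the 3 counts otherwise lay between 7 and 10 over all alternatives run, except for 6 in BC44 against C57MG when genes with means under 5 RPKM were left out.

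**Figure D1:**
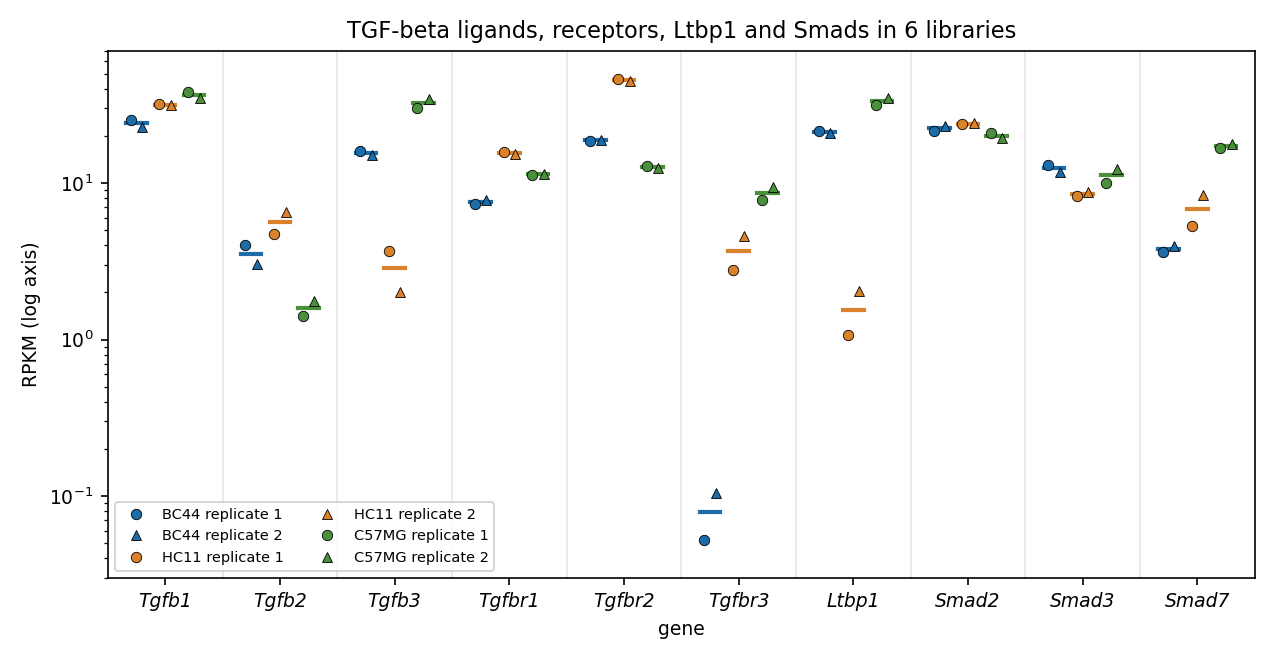
RPKM on a log axis for each of the 10 genes, with circles for replicate 1, triangles for replicate 2 and bars for the mean of the 2 libraries of BC44 (blue), HC11 (orange) and C57MG (green). Tgfbr3 in BC44 lies at 0.052 and 0.105 RPKM, far under every other point, and Ltbp1 and Tgfb3 are lowest in HC11.

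Tgfb1, the most widely expressed ligand gene, was the highest of the 3 ligand genes in all 6 libraries and varied least between lines. It stood at 25.5 and 22.9 RPKM in BC44, at 31.9 and 31.4 in HC11 and at 38.2 and 34.9 in C57MG. No libraries of different lines overlapped, with C57MG high and BC44 low. The means were 24.2 ± 1.79, 31.7 ± 0.359 and 36.6 ± 2.29 RPKM (SD, n = 2 each). BC44 was lower than C57MG by 0.58 on the log2 scale (SE 0.09, limma adjusted p = 0.000650) and lower than HC11 by 0.38 (SE 0.09, adjusted p = 0.0103). The latter did not pass without BC44 replicate 2 (0.0631). HC11 and C57MG are neighbours that did not separate in this test: the difference was -0.20, with a 95% interval from -0.41 to 0.01 (adjusted p = 0.0746), although quantile normalization gave 0.0378.

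Tgfb2 was the lowest of the ligand genes in BC44 and C57MG, and its order across the lines was the opposite of that of Tgfb3. Tgfb2 stood at 4.72 and 6.51 RPKM in HC11, 4.02 and 3.06 in BC44 and 1.42 and 1.76 in C57MG. The 3 lines did not overlap, and C57MG was low in both libraries. HC11 was 3.54-fold above C57MG in mean RPKM (log2 difference 1.34, SE 0.17, limma adjusted p = 0.000254). BC44 was 2.23-fold above C57MG (0.81, SE 0.17, adjusted p = 0.00351). The step from BC44 to HC11 was smaller, at -0.54 (SE 0.17, adjusted p = 0.0341), and did not hold in several settings: the adjusted p was 0.0540 with a pseudocount of 0.1, 0.191 without BC44 replicate 2 and 0.145 without HC11 replicate 2, where the difference was -0.34. The estimated reads behind Tgfb2 were 149 to 534 per library.

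Tgfb3, whose product is best known for palate fusion and for milk stasis signals in the mammary gland, differed most among the ligand genes. It stood at 30.1 and 34.4 RPKM in C57MG, 16.01 and 15.2 in BC44, and 3.69 and 2.001 in HC11. Each line kept to its own range, and HC11 was low in both libraries. C57MG was 11.3-fold above HC11 in mean RPKM (log2 difference -3.15 for HC11 against C57MG, SE 0.20, limma adjusted p = 5.85e-06). BC44 was 5.47-fold above HC11 (2.14, SE 0.20, adjusted p = 0.000122). C57MG was 2.07-fold above BC44 (-1.003 for BC44 against C57MG, SE 0.20, adjusted p = 0.00244). The C57MG-like signal in BC44 amounts to 0.215 and 0.651 RPKM of Tgfb3 in replicates 1 and 2, and the BC44 values were far above it. The median BC44-like signal in HC11, which was uneven between genes, corresponds to 0.371 and 0.189 RPKM, also under the measured HC11 values.

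The ligand make-up of a library followed from these orders. The 3 ligand genes summed to 69.7 and 71.1 RPKM in C57MG, 45.5 and 41.1 in BC44, and 40.3 and 39.9 in HC11. Tgfb1 made up 79.1% and 78.7% of the sum in HC11, 56.0% and 55.7% in BC44, and 54.8% and 49.1% in C57MG. Tgfb3 made up 9.15% and 5.01% in HC11 against 35.2% and 36.8% in BC44 and 43.2% and 48.4% in C57MG. HC11 was thus the line in which Tgfb1 took most of the sum and Tgfb3 least. Tgfb2 made up 11.7% and 16.3% in HC11, 8.85% and 7.43% in BC44, and 2.03% and 2.47% in C57MG. These shares were not tested, and they add up to the whole in each library, so they are not separate results. Their ranges did not overlap between lines, but for Tgfb1 the 55.7% of BC44 lay close to the 54.8% of C57MG.

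**Figure D2:**
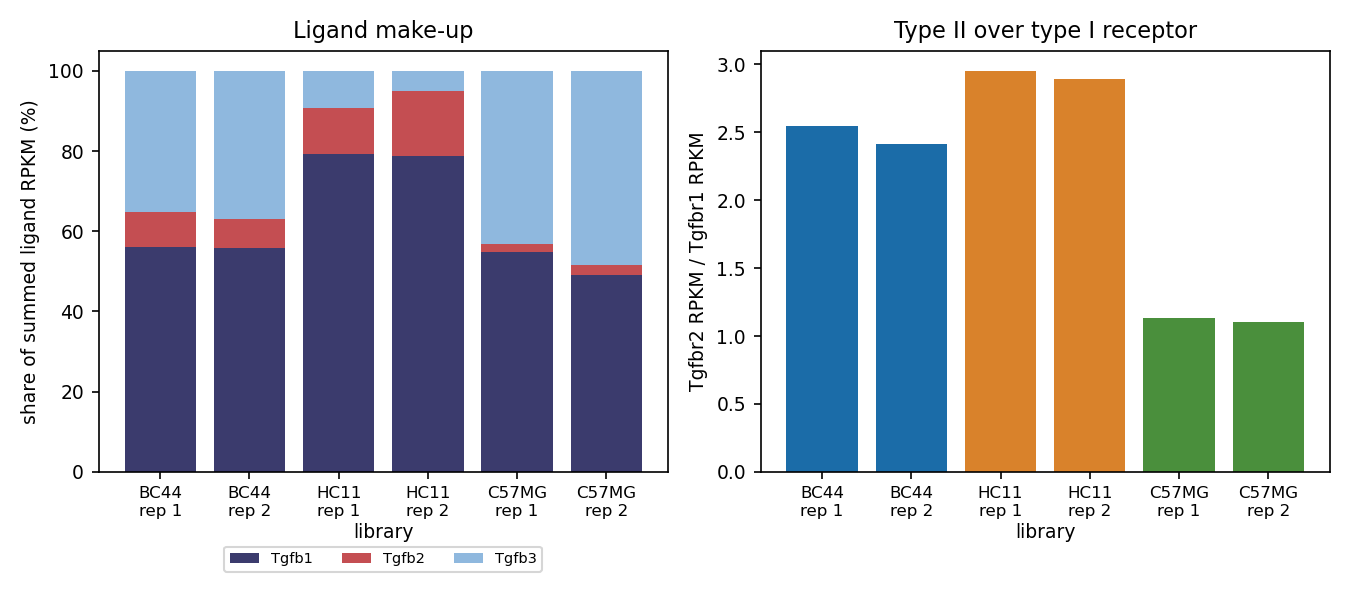
Left, share of each ligand gene in the summed RPKM of Tgfb1, Tgfb2 and Tgfb3 (%), 1 bar per library. Right, RPKM of Tgfbr2 divided by RPKM of Tgfbr1 in the same libraries. Tgfb1 takes 79.1% and 78.7% in HC11, and the receptor ratio is 1.13 and 1.10 in C57MG against 2.41 to 2.95 in the other lines.

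Ltbp1, which anchors the latent ligand complex in matrix, differed strongly between BC44 and HC11, the 2 lines that carried epithelial markers. It stood at 21.4 and 20.8 RPKM in BC44 but 1.06 and 2.04 in HC11, and at 31.5 and 35.0 in C57MG. HC11 was low in both libraries, and no lines overlapped. BC44 was 13.6-fold above HC11 in mean RPKM (log2 difference 3.14, SE 0.17, limma adjusted p = 1.13e-05), and C57MG was 21.4-fold above HC11 (-3.77 for HC11 against C57MG, SE 0.17, adjusted p = 1.30e-06). The HC11 values rested on an estimated 209 and 309 reads. Genes private to BC44 stood at medians of 2.38% and 1.21% of their BC44 level in HC11, which would correspond to 0.502 and 0.256 RPKM of Ltbp1, under the measured 1.06 and 2.04. Between BC44 and C57MG the difference was -0.63 (SE 0.17, adjusted p = 0.0128) and lost its call with a pseudocount of 0.1 (0.0601) and without BC44 replicate 1 (0.0553), BC44 replicate 2 (0.0665) or C57MG replicate 2 (0.0628). Set against the ligand sum of the same library, Ltbp1 was at 0.451 to 0.505 of it in BC44 and C57MG but at 0.0264 and 0.0512 of it in HC11.

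Both signalling receptor genes were highest in HC11. Tgfbr2, the ligand-binding type II kinase, stood at 46.4 and 44.6 RPKM in HC11, 18.6 and 18.8 in BC44, and 12.8 and 12.5 in C57MG. Replicates lay close together and all 3 lines were apart. HC11 was 2.44-fold above BC44 (log2 difference -1.24 for BC44 against HC11, SE 0.08, limma adjusted p = 1.89e-05) and 3.60-fold above C57MG (1.77, SE 0.08, adjusted p = 9.95e-07). BC44 was 1.48-fold above C57MG (0.53, SE 0.08, adjusted p = 0.000515).

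Tgfbr1, the type I kinase that phosphorylates the Smads, had a different order below HC11. It stood at 15.7 and 15.4 RPKM in HC11, 11.3 and 11.4 in C57MG, and 7.31 and 7.79 in BC44. Here BC44, not C57MG, was the lowest line, again with no overlap. HC11 was 2.06-fold above BC44 (-0.96 for BC44 against HC11, SE 0.09, limma adjusted p = 0.000125) and 1.37-fold above C57MG (0.43, SE 0.09, adjusted p = 0.00334). C57MG was 1.502-fold above BC44 (-0.53 for BC44 against C57MG, SE 0.09, adjusted p = 0.00104). The ratio of type II to type I receptor RPKM was 1.13 and 1.10 in C57MG, against 2.55 and 2.41 in BC44 and 2.95 and 2.90 in HC11. The receptor transcripts were thus near parity in C57MG alone among the 3 lines. Their sum was 62.2 and 60.1 RPKM in HC11, 25.9 and 26.6 in BC44, and 24.1 and 23.9 in C57MG. Calls of both receptor genes held in all 3 comparisons under every alternative run.

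Tgfbr3, the co-receptor betaglycan, was at the limit of detection in BC44. It stood at 7.77 and 9.38 RPKM in C57MG and 2.80 and 4.58 in HC11, against 0.052 and 0.105 in BC44. The BC44 values rested on an estimated 5 and 12 reads. The C57MG-like signal of these libraries corresponds to 0.0571 and 0.173 RPKM of Tgfbr3, so neither BC44 library stood above it. The log2 difference was -3.15 for BC44 against C57MG and -2.10 for BC44 against HC11 (SE 0.19 each). Both differences are a description, since Tgfbr3 passed the expression filter only through the other lines. With a pseudocount of 0.1 these were -5.61 and -4.38, since a pseudocount of 1 compresses values this low. C57MG was 2.32-fold above HC11 (-1.05 for HC11 against C57MG, SE 0.19, limma adjusted p = 0.00154).

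**Figure D3:**
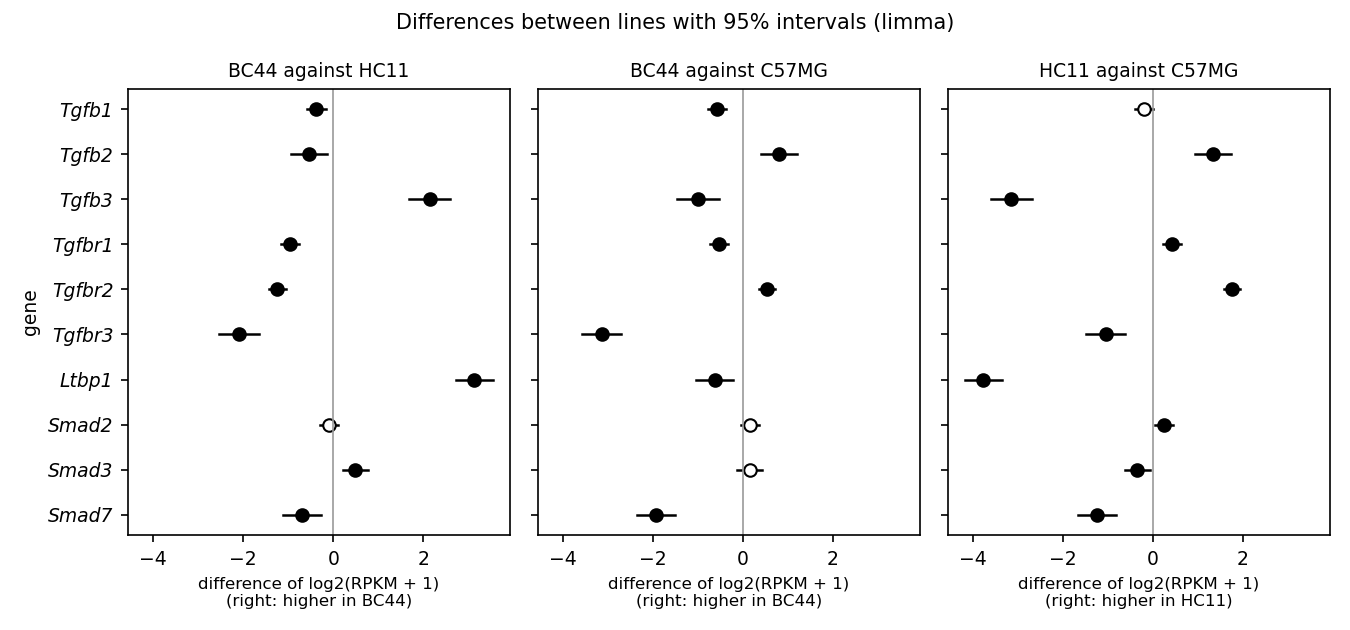
Difference between lines in log2(RPKM + 1) for each gene (points, filled where the limma adjusted p is under 0.05) with its 95% interval (lines), positive where the first-named line is higher. Ltbp1 lies at 3.14 in BC44 against HC11 and at -3.77 in HC11 against C57MG, while Smad2 and Smad3 lie within 0.5 of 0 in all 3 panels.

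The receptor-activated Smad genes varied little. Smad2 stood at 21.6 and 23.1 RPKM in BC44, at 23.8 and 24.1 in HC11 and at 20.8 and 19.2 in C57MG. The means of 22.4 ± 1.06, 24.0 ± 0.244 and 20.01 ± 1.09 RPKM (SD, n = 2 each) span 1.198-fold. The 95% interval of the log2 difference was -0.29 to 0.10 for BC44 against HC11 (limma adjusted p = 0.378) and -0.04 to 0.35 for BC44 against C57MG (0.138). HC11 was above C57MG by 0.25 (SE 0.08, adjusted p = 0.0295), a call that was lost when any 1 of the 4 libraries was left out (0.0645 and 0.200 without C57MG replicates 1 and 2, 0.0621 and 0.0802 without HC11 replicates 1 and 2).

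Smad3 was lowest in HC11. It stood at 13.1 and 11.8 RPKM in BC44, at 10.0 and 12.3 in C57MG and at 8.28 and 8.77 in HC11. BC44 and C57MG overlapped, and HC11 lay under both. BC44 was 1.46-fold above HC11 (log2 difference 0.49, SE 0.12, limma adjusted p = 0.0117), which did not pass without BC44 replicate 1 (0.0780). HC11 was below C57MG by 0.35 on the log2 scale (SE 0.12, adjusted p = 0.0308), which did not pass without C57MG replicate 2 (-0.21, 0.228) or HC11 replicate 1 (0.0920). For BC44 against C57MG the interval was -0.14 to 0.42 (adjusted p = 0.309). The sum of Smad2 and Smad3 was 30.8 to 34.9 RPKM in all 6 libraries, while the ratio of Smad2 to Smad3 was 2.88 and 2.76 in HC11 and 1.56 to 2.07 in the others.

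Smad7, the inhibitory Smad that TGF-beta itself induces, was highest in C57MG. It stood at 16.8 and 17.7 RPKM in C57MG, 5.32 and 8.40 in HC11, and 3.60 and 3.93 in BC44. The lines did not overlap, and HC11 replicates were further apart than those of the other lines. C57MG was 4.58-fold above BC44 (log2 difference -1.94 for BC44 against C57MG, SE 0.18, limma adjusted p = 4.01e-05) and 2.51-fold above HC11 (-1.24 for HC11 against C57MG, SE 0.18, adjusted p = 0.000503). Between BC44 and HC11 the difference was -0.70 (SE 0.18, adjusted p = 0.0153), with no call without BC44 replicate 1 (0.0885) or 2 (0.0588) and a difference of -0.41 without HC11 replicate 2. Relative to the sum of Smad2 and Smad3, Smad7 stood at 0.544 and 0.562 in C57MG, 0.166 and 0.255 in HC11, and 0.104 and 0.113 in BC44.

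HC11 replicates were the less even ones for several of these genes. Replicate 2 was above replicate 1 for Ltbp1, Tgfbr3, Smad7 and Tgfb2 and below it for Tgfb3, at 2.001 against 3.69 RPKM. Of the 10 genes, 7 passed in all 3 comparisons (26.8% of tested genes did), Tgfb1 and Smad3 in 2 (50.2%) and Smad2 in 1 (8.96%). The levels show a distinct combination in each line. HC11 had the most Tgfbr1, Tgfbr2 and Tgfb2 and the least Tgfb3, Ltbp1 and Smad3 RPKM. C57MG had the most Tgfb1 (not separated from HC11 by the test), Tgfb3, Ltbp1, Tgfbr3 and Smad7 and the least Tgfb2 and Tgfbr2. BC44 had the least Tgfb1, Tgfbr1, Tgfbr3 and Smad7.

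By distance between centred log2(RPKM + 1) profiles over the 6 libraries, the genes nearest to Tgfb1 were Zfp3 (0.08), Wdpcp (0.11) and Dnajb5 (0.13), all at 1.41 RPKM or less in every library. Nearest to Tgfb2 were Tagln (0.26), Homer3 (0.27) and Ccdc149 (0.31). Nearest to Tgfb3 were Sord (0.40), Pdlim2 (0.64) and Lurap1l (0.66). Sord, a sorbitol dehydrogenase gene, stood at 31.8 and 27.6 RPKM in BC44, at 52.9 and 54.1 in C57MG and at 8.06 and 5.73 in HC11. A smaller distance means a more similar profile on this scale, which compresses low values, so fold changes can still differ. Tagln, at 0.105 and 0 RPKM in C57MG, was 16.3-fold higher in BC44 by mean RPKM, against 2.23-fold for Tgfb2. The points share the same 6 libraries, and a gene that varies little has more near neighbours.

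Other genes of the pathway were read from 6 lists. Of the genes that store, anchor or activate latent ligand, 19 of 24 were tested. In BC44 against HC11 6 were higher in BC44 and 6 in HC11 (24.7% and 23.0% of all tested genes). Against C57MG 4 were higher in BC44 and 11 in C57MG (37.5% and 34.1%), and 6 were higher in HC11 and 10 in C57MG (37.4% and 33.2%). These shares of all tested genes apply to the same comparisons in the lists that follow. The list's median log2 difference was -0.07, -1.14 and -0.85 in the 3 comparisons. Matrix genes were among those far higher in C57MG. Emilin1, a matrix glycoprotein that restrains TGF-beta processing, stood at 71.2 and 73.0 RPKM in C57MG, whereas BC44 had 0.305 and 1.23 and HC11 0.022 and 0.071. Bgn, the proteoglycan biglycan, stood at 36.0 and 35.2 RPKM in C57MG and at most 0.742 in the others. Both passed the expression filter only through C57MG, as did Fbn1, while Dcn passed only through HC11 and Itgb8 only through BC44. Itgb6 passed only through BC44 and HC11, and Ltbp2 and Itgb3 only through HC11 and C57MG. Calls of these genes are in the counts above but are not given as support. The C57MG-like signal corresponds to 0.480 and 1.45 RPKM of Emilin1 and 0.237 and 0.718 of Bgn in BC44, about what was measured. With the private-gene signals of all lines subtracted, 4 rather than 6 genes were higher in BC44 than in HC11. Fewer genes were higher in BC44, against HC11 and against C57MG, when BC44 replicate 2 was left out.

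Ltbp2, a relative of Ltbp1 that does not itself bind latent TGF-beta, had another order than Ltbp1. It stood at 29.5 and 37.1 RPKM in HC11 and 46.1 and 36.4 in C57MG but 0.518 and 1.19 in BC44. The C57MG-like signal corresponds to 0.275 and 0.833 RPKM of Ltbp2 in BC44 replicates 1 and 2. The log2 difference was -4.22 for BC44 against HC11 (SE 0.20). This difference is a description, since Ltbp2 passed the expression filter only through HC11 and C57MG. Thus HC11 was low in Ltbp1 and BC44 in Ltbp2, whereas C57MG had both. Plat, tissue plasminogen activator, stood at 26.0 and 43.1 RPKM in HC11 against 3.30 and 2.90 in BC44 (-3.08, SE 0.21, limma adjusted p = 2.76e-05). The levels of the other 2 family members in the table were 17.2 to 23.0 RPKM in BC44, 4.72 to 7.16 in HC11 and 1.62 to 1.73 in C57MG for Ltbp4, and 21.4 to 30.2 RPKM over all libraries for Ltbp3. The epithelial integrin gene Itgb6, whose product activates latent TGF-beta, was at 0.914 to 1.30 RPKM in BC44 and HC11 and at 0.039 and 0.027 in C57MG.

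Of the co-receptors and receptor partners 7 of 10 were tested. For BC44 and HC11 3 were higher in BC44 and 2 in HC11. Against C57MG 3 were higher in BC44 and 4 in C57MG, and 2 in each direction for HC11, of which the C57MG-higher count was 1 without either C57MG library. The medians were 0.26, -0.40 and 0.18. Eng, the co-receptor endoglin, was low in all lines and highest in C57MG, at 2.20 and 1.81 RPKM against 0.424 and 0.326 in BC44 and 0.181 and 0.108 in HC11. Eng passed the expression filter only through C57MG, so these values are a description, although its calls are in the counts above. Fkbp1a, whose product FKBP12 holds the type I receptor inactive, was at 106 and 104 RPKM in HC11 and 56.7 and 60.9 in BC44 (-0.82, SE 0.08, adjusted p = 0.000121). Dab2, an endocytic adaptor that binds receptors and Smads, was lowest in HC11, at 15.2 and 19.6 RPKM, against 29.3 and 27.7 in BC44 (0.69, adjusted p = 0.00537) and 54.5 and 44.5 in C57MG (-1.46, adjusted p = 5.70e-05). Zfyve9, the receptor anchor SARA, was at 7.95 and 8.09 RPKM in BC44 and 3.92 and 4.29 in C57MG (0.82, adjusted p = 0.000172).

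All 17 Smad partners and regulators were tested. Between BC44 and HC11 4 were higher in each line, counts that fell to 2 in BC44 without either BC44 library and to 2 in HC11 without BC44 replicate 1. Against C57MG 7 were higher in BC44 and 4 in C57MG, and 9 were higher in HC11 and 3 in C57MG. In all 8, 11 and 12 of the 17 passed, near the 47.7%, 71.7% and 70.5% of all tested genes. The medians were -0.09, 0.11 and 0.22. Smad4, the common partner of Smad2 and Smad3, was at 22.8 to 27.7 RPKM in all 6 libraries. Pmepa1, a TGF-beta-induced gene that restrains Smad2 and Smad3, was lowest in C57MG, at 17.6 and 12.5 RPKM, against 59.0 and 63.4 in BC44 and 76.8 and 59.9 in HC11 (1.97 and 2.12, limma adjusted p = 2.89e-05 and 2.28e-05). Smad7 and Pmepa1, both feedback inhibitors, therefore stood in opposite order between C57MG and the other lines. The co-repressor gene Tgif2 was at 12.1 and 10.5 RPKM in BC44, at 7.79 and 5.89 in HC11 and at 0.072 and 0 in C57MG. The BC44-like signal of C57MG replicate 1 corresponds to 0.0826 RPKM of Tgif2. The differences from C57MG were 3.57 and 2.91, or 6.44 and 5.71 with a pseudocount of 0.1. They are a description, since Tgif2 passed the expression filter only through BC44 and HC11. Its relative Tgif1 was highest in HC11, at 20.8 and 21.5 RPKM against 10.1 and 8.30 in BC44 (-1.13, adjusted p = 0.000162). The Smad co-repressor gene Ski had the reverse order, at 40.9 and 42.0 RPKM in BC44 and 21.0 and 17.1 in HC11 (1.09, adjusted p = 0.000142).

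Activins use other receptors but the same Smad2 and Smad3, and 8 of 13 genes of that branch were tested. With BC44 and HC11 compared, 2 were higher in BC44 and 3 in HC11, and the latter count fell to 1 without BC44 replicate 2 or HC11 replicate 2. Against C57MG 3 were higher in BC44 and 2 in C57MG (1 without BC44 replicate 2 or either C57MG library), and 5 were higher in HC11 and 1 in C57MG. The medians were -0.33, 0.20 and 0.76. Large differences were found in activin subunit genes and in follistatin genes, whose products bind and block activin. Fst, encoding follistatin, was at 306 and 273 RPKM in BC44, at 11.98 and 19.7 in HC11 and at 2.04 and 0 in C57MG. Its log2 difference was 4.14 for BC44 against HC11 (SE 0.46, limma adjusted p = 0.000333). Against C57MG the differences were 7.38 for BC44 and 3.24 for HC11, and the latter was 5.07 with a pseudocount of 0.1. Both differences from C57MG are a description, since Fst passed the expression filter only through BC44 and HC11. Its calls are in the counts above. The BC44-like signal corresponds to 2.11 RPKM of Fst in C57MG replicate 1 and to 6.89 and 3.51 RPKM in HC11, where it was uneven between genes. Its relative Fstl3 was at 4.03 and 4.54 RPKM in HC11, 0.140 and 0.141 in BC44, and 0 and 0.106 in C57MG. Fstl3 passed the filter only through HC11, and its calls in the counts above are not given as support. Inhbb was at 28.7 and 23.4 RPKM in BC44, at 1.11 and 1.08 in HC11 and at 0.195 and 0.030 in C57MG. BC44 was above HC11 by 3.68 (limma adjusted p = 1.91e-06). Its difference from C57MG was 4.60, or 7.05 with a pseudocount of 0.1. The latter is a description, since C57MG did not reach the filter level. Inhba was at 64.3 and 92.3 RPKM in HC11, 54.1 and 61.4 in BC44, and 13.3 and 9.80 in C57MG (2.65 for HC11 against C57MG, adjusted p = 1.28e-05). Both activin subunit genes and Fst thus had their lowest level in C57MG, where Tgfb1 and Tgfb3 were highest.

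**Figure D4:**
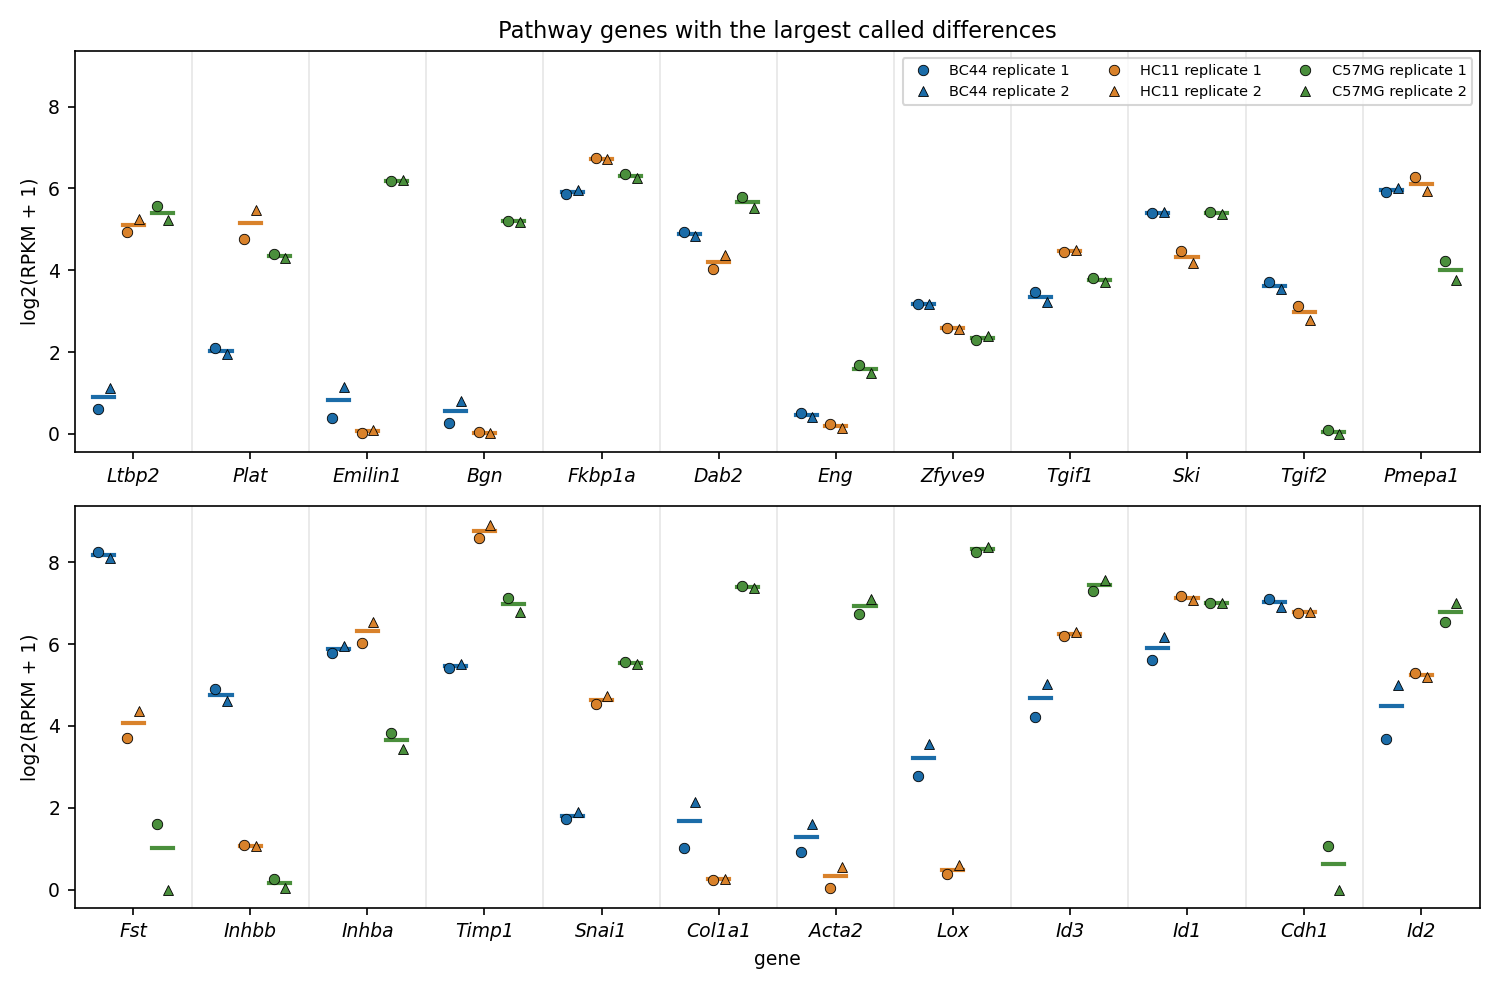
Level as log2(RPKM + 1) of the 24 pathway genes named by size of difference, with circles and triangles for replicates 1 and 2 and bars at the mean RPKM of each line (BC44 blue, HC11 orange, C57MG green). Emilin1, Bgn, Col1a1, Acta2 and Lox are highest in C57MG, and Fst and Inhbb are highest in BC44.

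Genes commonly induced by TGF-beta did not move as a block. Of 25 listed, 23 were tested and 20 passed in each comparison, against 47.7%, 71.7% and 70.5% of all tested genes. BC44 and HC11 each had 10 that were higher than in the other, or 8 in BC44 with the private-gene signals of all lines subtracted. With only genes of a mean of 5 RPKM or more tested, 10 were higher in BC44 and 6 in HC11. Against C57MG 8 were higher in BC44 and 12 in C57MG, and 11 were higher in HC11 and 9 in C57MG. The counts include Acta2, Col1a2, Zeb1 and Zeb2, which passed the expression filter only through C57MG, and Tgfbi, Tagln and Angptl4, only through HC11. Calls of these genes are not given as support. Cdkn2b and Pthlh did not reach the filter level in C57MG, nor did Col1a1, Col3a1 and Lox in HC11. Their calls against those lines are likewise in the counts but are not given as support. The medians were 0.15, -1.49 and 0.15. The collagen gene Col1a1 was at 171 and 163 RPKM in C57MG, 1.02 and 3.40 in BC44 and 0.172 and 0.202 in HC11. The difference was -5.82 for BC44 against C57MG (limma adjusted p = 2.23e-06) and -7.15 for HC11 against C57MG. Acta2, smooth muscle actin, was at 105 and 136 RPKM in C57MG against 0.883 and 2.03 in BC44, and passed the filter only through C57MG. Lox, which crosslinks collagen, was at 303 and 332 RPKM in C57MG and 0.302 and 0.508 in HC11 (-7.83). HC11 did not reach the filter level for Col1a1 or Lox, so their differences between HC11 and C57MG are a description. Col1a1, Acta2 and Lox belong to a mesenchymal programme, and Col1a1 and Acta2 are also on the marker lists. The C57MG-like signal corresponds to 1.11 and 3.38 RPKM of Col1a1 and 0.802 and 2.43 of Acta2 in BC44, close to what was measured. For Lox it corresponds to 2.11 and 6.40 RPKM, under the 5.90 and 10.7 measured in BC44.

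Other commonly induced genes had other orders. Timp1, a metalloproteinase inhibitor, was at 383 and 482 RPKM in HC11 and 41.8 and 44.6 in BC44 (-3.29, SE 0.15, limma adjusted p = 4.09e-06). Snai1, a repressor of epithelial genes, was at 22.3 and 25.6 RPKM in HC11 and 2.28 and 2.72 in BC44 (-2.84, SE 0.11, adjusted p = 2.26e-06). In C57MG Timp1 was at 139.6 and 108.5 RPKM, under HC11, and Snai1 at 46.6 and 44.8 RPKM, above HC11. HC11 was thus higher than BC44 for both genes, but Snai1 was highest in C57MG. The growth inhibitor gene Cdkn2b was at 13.7 and 12.3 RPKM in BC44, at 6.996 and 4.46 in HC11 and at 0.119 and 0 in C57MG. Cdkn2b, Fstl3, Ltbp3, Ltbp4, Itgb6 and Smad4 were named after their values were seen.

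All 6 genes commonly repressed by TGF-beta in epithelium were tested. Against HC11 1 was higher in BC44 (none without BC44 replicate 2 or HC11 replicate 1) and 2 in HC11. Against C57MG 3 were higher in BC44 and 3 in C57MG, and 3 were higher in HC11 and 2 in C57MG. The medians were -0.52, -0.12 and 0.27, and the list split by gene. The Id genes encode inhibitors of helix-loop-helix factors, and Id1 and Id3 were lower in BC44 than in HC11. Id3 was at 17.6 and 31.5 RPKM in BC44, at 72.8 and 77.9 in HC11 and at 157 and 187 in C57MG (-1.63 for BC44 against HC11 and -2.81 for BC44 against C57MG, limma adjusted p = 0.00103 and 2.22e-05). Id1 was at 47.9 and 70.7 RPKM in BC44 and 142 and 134 in HC11 (-1.23, adjusted p = 0.000701). Id2 was at 38.1 and 35.5 RPKM in HC11 and 91.2 and 128 in C57MG (-1.53, adjusted p = 0.00799). In BC44 it was at 11.8 and 31.2 RPKM, and the difference from HC11 did not pass (adjusted p = 0.0904). Cdh1, the epithelial cadherin gene, was at 137 and 120 RPKM in BC44 and at 107 and 110 in HC11. In C57MG it was at 1.09 and 0 RPKM, and the differences from C57MG were 6.48 for BC44 and 6.24 for HC11. They are a description, since Cdh1 passed the expression filter only through BC44 and HC11, although its calls are in the counts above. The BC44-like signal corresponds to 0.936 RPKM of Cdh1 in C57MG replicate 1.

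**Figure D5:**
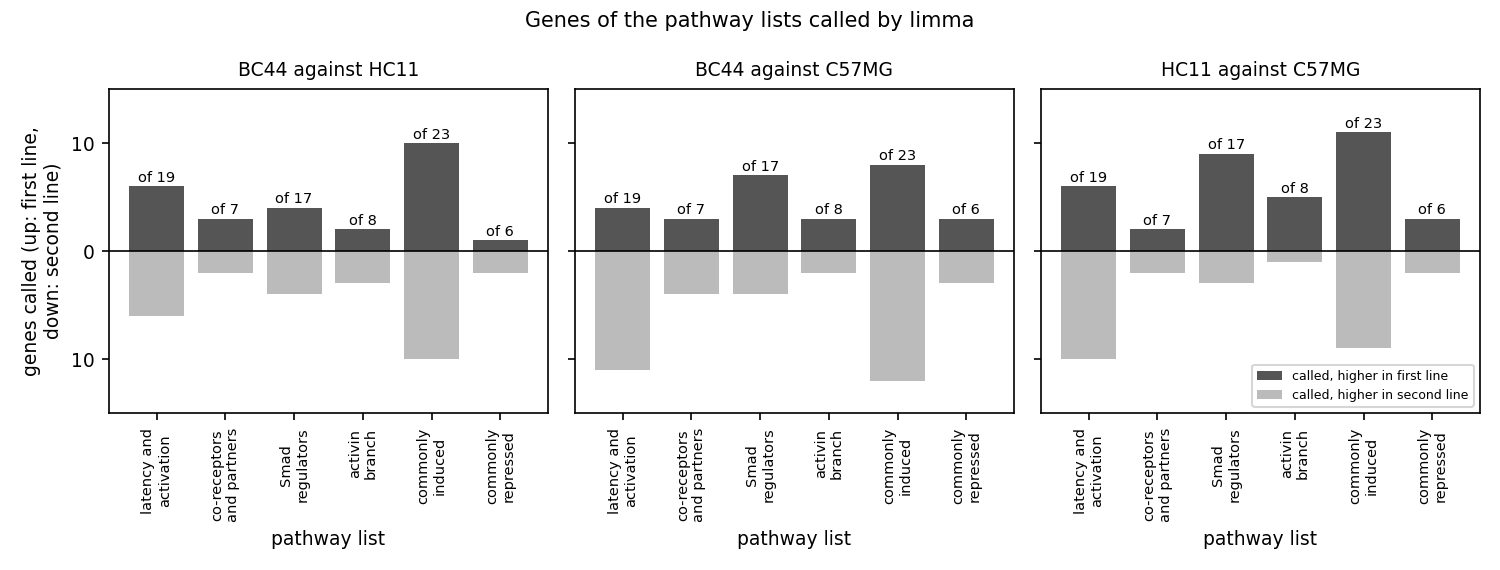
Number of genes of each pathway list called by limma (adjusted p under 0.05) as higher in the first line (dark, upward) or the second line (light, downward), with the number tested above each bar. Genes commonly induced by TGF-beta split 10 and 10, 8 and 12, and 11 and 9 in the 3 comparisons.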

How the data were processed

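The authors deposited 1 table of RPKM values, per the name of the deposited table, with 1 column per library, 3 decimals and no pooled columns. STAR and the mouse build mm9 are named in the submitters' processing notes. The libraries were made with a directional kit, per the labels' protocols. The counter, its use of strand, the annotation, the gene lengths and how genes were selected for the table are not given in the sources used here. Whether reads shared with overlapping or related genes were split is therefore unknown.

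From these values log2(RPKM + 1) was tested with limma 3.58.1 in R 4.3.3 (trend, two-sided, all 6 libraries in 1 model of line). The 10759 genes with at least 1 RPKM in at least 2 libraries were tested, with Benjamini-Hochberg adjustment over all of them and a threshold of 0.05. With 2 libraries a side the smallest p an exact permutation test can give is 0.333, so none was used. The model was tested on simulated data. The genes and lists were chosen with earlier results of these data known. From each pathway list the rule named the 2 genes per comparison with the largest called difference whose libraries did not overlap, and for each ligand gene the 3 nearest profiles.

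Depth was estimated from the steps of low RPKM values with GENCODE M21 exon lengths. At the chosen depth 72.5% to 78.8% of 255 to 371 low values per library fell within 0.15 of a whole read, against a median of 26.7% to 28.7% over the depths tried. Read numbers are estimates and cover counting error only. Genes private to a line had a mean of at least 20 RPKM there, at most 2% of it in the third line and at most 5% in the other replicate. Alternatives were a pseudocount of 0.1, quantile normalization, median-ratio scaling, no filter, a minimum mean of 5 RPKM, subtraction of the private-gene signal, the replicate number as a block, and leaving out each library. Tables and plots were made in Python 3.11.15 with numpy 2.4.6, pandas 2.3.3 and matplotlib 3.10.9.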

Additional observations from a re-analysis of the deposited data

How the results depend on the processing

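Of 384 recomputed differences of the 10 genes, 366 kept their direction and their side of the threshold, 17 kept the direction but lost the call, 1 gained it and none reversed. The lost calls concerned Tgfb1, Tgfb2, Smad3 and Smad7 between BC44 and HC11, Ltbp1 between BC44 and C57MG, and Smad2 and Smad3 between HC11 and C57MG. All came from leaving out 1 library or from a pseudocount of 0.1, and the cause was not tested. All 458 recomputed differences of the pathway genes named by the rule kept direction and call. They cover only the comparisons in which a gene was picked for a large called difference, so keeping the call was likely from the start. Some of these differences are given above only as a description. Quantile or median-ratio scaling moved the median of all genes by at most 0.04 on the log2 scale. The counts over all genes were lowest without BC44 replicate 1 (3600, BC44 against HC11) and at a mean of at least 5 RPKM (5574 and 5476), which tests fewer genes and leaves out Tgfb2 and Tgfbr3.

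A replicate block in the model gave 5350, 7875 and 7721 passing genes, against 5129, 7713 and 7590 with no block, and 9, 8 and 9 of the 10 genes passed in either model. The deviations of same-numbered libraries from their line means correlated over genes at 0.354 for BC44 and HC11. The value was -0.0387 for BC44 and C57MG and 0.0379 for HC11 and C57MG. The main model did not take the numbers as pairs, and what lies behind the 0.354 was not tested. With 2 libraries a line, leaving 1 out makes the lone library share the spread of the other lines.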
